A study of Mus musculus with 2 samples.

Results

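Epcam, Cdh1, Krt8, Krt18, Cldn3, Cldn6, Cldn7 and Cdh2 encode adhesion molecules, tight junction claudins and simple keratins that distinguish an epithelial sheet from the loose tissue around it. These 8 genes of the 27998 in the count matrices were taken by gene symbol, and each symbol matched 1 row. Single cells from 2 mouse embryonic pancreata (day 13.5) were sequenced with a droplet method that tags every captured transcript with a unique molecular identifier (UMI), so that molecules rather than reads are counted. The knockout-labelled library came from 1 C57BL/6 embryo of a Dpy30∆P genotype and the control library from 1 C57BL/6 embryo of the same stage. Dpy30 is a core subunit of the complexes that methylate histone H3 at a lysine residue. The labels do not give the driver of the deletion, the deleted part of Dpy30 or the genotype of the control, and the label gives whole pancreas as the tissue. With 1 library per group there was no test of any difference, and a difference between the libraries is a difference between 2 embryos.

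Epithelial cells hold on to each other through cadherins, which bind the same cadherin on the neighbouring cell at adherens junctions, and seal the space between them with claudins at tight junctions. Simple epithelia fill their cytoplasm with filaments made of paired keratins, of which Krt8 (a type II keratin) and Krt18 (its type I partner) are the first to appear in the embryo. At this stage the pancreatic epithelium is a branching tube whose tips are turning into acinar cells and whose trunk gives rise to ducts and to endocrine cells. Endocrine cells arise when trunk cells express the transcription factor Neurog3 and leave the tube. The pancreas is covered by mesothelium, a flat epithelium of mesodermal origin that lines the body cavity and also makes keratins, and is embedded in mesenchyme.

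In total 28033433 UMIs in 3044 barcodes were recorded for the knockout-labelled library, against 32702089 UMIs in 3900 barcodes for the control library, and 2938 knockout-labelled and 3749 control cells were kept. Levels are in CPM, UMIs of the gene per 1000000 UMIs, summed over the cells of a group in a library. Brackets after a value hold its exact 95% interval (from Poisson counts for levels and their ratios, Clopper-Pearson for shares), which covers counting error alone and not the variation between embryos. The epithelium was found by clustering without the 8 genes. In the knockout-labelled library it held 472 cells, of which 184 were tip-like, 152 trunk-like, 53 had 1 to 4 Neurog3 UMIs, 57 had at least 5 and 23 had at least 3 UMIs of Chga, a granule protein of endocrine cells. In the control library it held 748 cells, of which 161 were tip-like, 255 trunk-like, 108 had 1 to 4 Neurog3 UMIs, 129 had at least 5 and 86 had at least 3 UMIs of Chga. Chga decided first, then Neurog3, and tip-like and trunk-like cells hold no Neurog3 UMI. The median UMIs per cell of these groups lay between 7398 and 17420 in the knockout-labelled library and between 7623.5 and 19125 in the control library, lowest in Chga cells and highest in tip-like cells. Mesothelial cells (170 knockout-labelled and 191 control) were those outside the epithelium with at least 3 UMIs of Upk3b, Lrrn4 and Upk1b together. All of them fell in the cluster named mesothelium-like from fixed markers. Over the whole epithelium Dpy30 itself stood at 266 CPM in the knockout-labelled library, against 226 CPM in the control library, so the targeted gene was not lower under the knockout label. Counting at the 3′ end need not read a deletion elsewhere in the gene, so this level does not check the label. The epithelium held 9985 Xist and 0 Ddx3y UMIs in the knockout-labelled library, against 0 Xist and 441 Ddx3y UMIs in the control library, so sex and label cannot be told apart. Both libraries held 22 barcodes in common, 2 of them on epithelial cells of the knockout-labelled library and 6 on those of the control library.

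**Figure D1:**
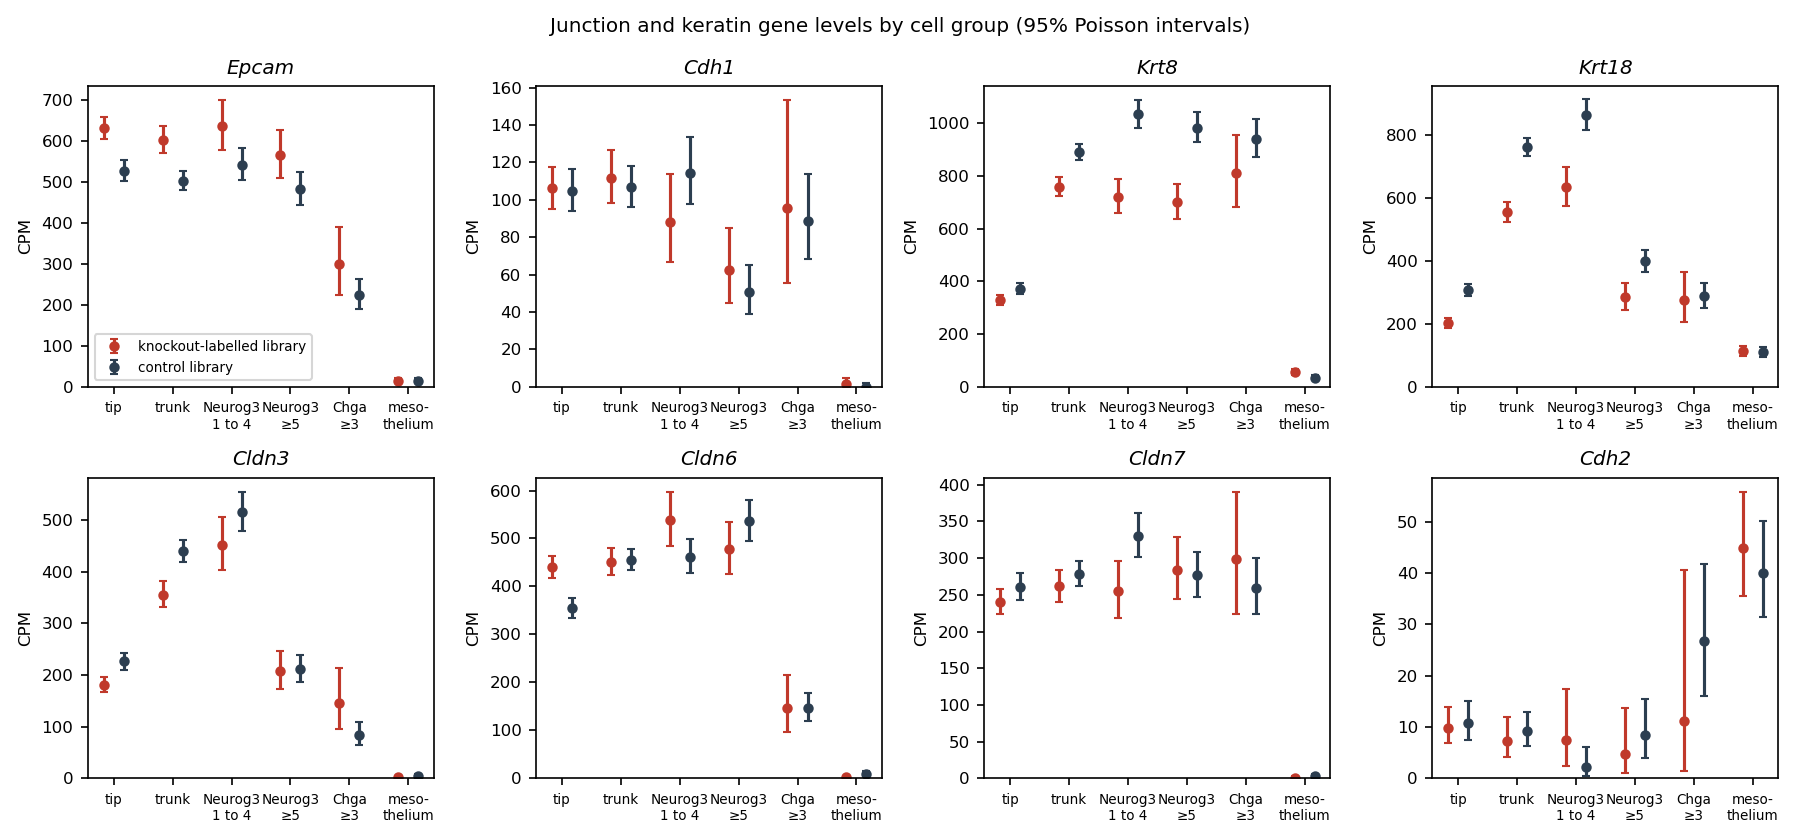
Level of each of the 8 genes (CPM, 1 panel per gene) in the 5 epithelial cell groups and the mesothelium, with the knockout-labelled library left of the control library in each pair. Points are levels of 1 library each on an axis from 0, and the error lines are exact Poisson 95% intervals for counting error alone. A reader should see 7 genes that are high across the epithelium and lower in mesothelium, where Krt18 and Krt8 are the highest of the 7. Cdh2 has the opposite order.

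The 8 genes lie on 6 chromosomes, with Epcam (ENSMUSG00000045394, chr17:87635979-87651127) and Cldn6 (ENSMUSG00000023906, chr17:23679348-23682446) on one and Krt8 (ENSMUSG00000049382, chr15:101996711-102004342) and Krt18 (ENSMUSG00000023043, chr15:102028216-102032026) side by side on another (RefSeq, GRCm38.p6). Krt8 and Krt18 are 23.9 kb apart and are transcribed away from each other. The others are Cdh1 (ENSMUSG00000000303, chr8:106603350-106670247), Cldn3 (ENSMUSG00000070473, chr5:134986214-134987476) and Cldn7 (ENSMUSG00000018569, chr11:69964779-69967886). The promoter windows of the keratin pair, of Epcam and of Cldn3 are shown because the comparisons of tip, trunk and endocrine cells turn on these genes. Each runs 5′ to 3′ from 250 bases before to 50 bases after the RefSeq start site (GRCm38.p6), and capitals mark CAGGTG on either strand, an E-box of the kind that the repressors Snai1, Snai2 and Zeb1 bind. The motif was searched as these 6 letters and its reverse complement, which do not overlap.
Epcam (chr17:87635729-87636028, + strand): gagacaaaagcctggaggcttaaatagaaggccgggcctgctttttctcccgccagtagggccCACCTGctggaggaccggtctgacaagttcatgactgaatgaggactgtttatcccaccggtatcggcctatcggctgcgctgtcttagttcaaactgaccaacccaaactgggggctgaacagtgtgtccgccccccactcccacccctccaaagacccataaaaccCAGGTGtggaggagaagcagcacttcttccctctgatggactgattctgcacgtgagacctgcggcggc
Krt8 (chr15:102004293-102004592, - strand): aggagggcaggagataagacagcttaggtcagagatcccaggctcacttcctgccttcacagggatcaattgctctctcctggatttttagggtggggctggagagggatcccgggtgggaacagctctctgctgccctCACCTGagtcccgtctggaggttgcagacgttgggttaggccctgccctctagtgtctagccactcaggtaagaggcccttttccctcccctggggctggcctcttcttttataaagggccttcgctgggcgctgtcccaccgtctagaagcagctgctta
Krt18 (chr15:102027966-102028265, + strand): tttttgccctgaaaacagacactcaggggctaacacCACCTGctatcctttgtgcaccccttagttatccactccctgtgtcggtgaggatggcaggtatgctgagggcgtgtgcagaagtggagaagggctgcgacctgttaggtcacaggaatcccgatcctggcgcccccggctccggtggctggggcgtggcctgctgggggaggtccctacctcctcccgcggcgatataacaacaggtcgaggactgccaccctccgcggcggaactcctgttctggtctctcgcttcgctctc
Cldn3 (chr5:134985964-134986263, + strand): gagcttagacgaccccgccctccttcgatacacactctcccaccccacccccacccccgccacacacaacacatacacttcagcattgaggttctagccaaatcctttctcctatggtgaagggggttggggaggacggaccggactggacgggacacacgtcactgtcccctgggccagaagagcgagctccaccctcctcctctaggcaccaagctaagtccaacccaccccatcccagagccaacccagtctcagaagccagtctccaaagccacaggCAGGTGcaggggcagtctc
In the Epcam window the motif begins 187 and 19 bases before the start site. It begins 111 bases before it in Krt8, 214 bases before it in Krt18 and 31 bases after it in Cldn3. The Cldn6 window also holds 2 matches, and of the 2 start sites of Cldn7 one window holds none and the other 2. No window of Cdh1 or Cdh2 was searched, and the Cdh1 window was not available. The same 6 letters occur in 20.2% of the 32851 promoter windows of that length in the table, and a match is a description of the sequence.

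Epcam, a cell surface adhesion molecule found on nearly all simple epithelia, was high along the tube and lower in endocrine cells of both libraries. In tip-like cells, trunk-like cells, cells with 1 to 4 and with at least 5 Neurog3 UMIs, and cells with at least 3 Chga UMIs, in that order, Epcam stood at 631, 603, 636, 565 and 298 CPM in the knockout-labelled library, against 526, 502, 542, 482 and 224 CPM in the control library. The first 4 groups lay close together and the Chga group lowest in each library. The log2 ratio of cells with at least 3 Chga UMIs over trunk-like cells was -1.0 (-1.42 to -0.61) in the knockout-labelled library and -1.14 (-1.38 to -0.91) in the control library. Of the 8 genes, 4 were lower past 1.5-fold in Chga cells than in trunk-like cells in both libraries, where 15.8% of all genes with at least 20 UMIs were. The other 3 were Cldn6, Cldn3 and Krt18. The median log2 ratio of the 8 genes was -0.60 in the knockout-labelled library and -0.70 in the control library, beside 0.026 (knockout-labelled) and 0.13 (control) for all genes. Scaling by the trimmed mean of M values (TMM) lowered the ratios of this contrast by 0.38 in the knockout-labelled library and by 0.35 in the control library, and the count stayed at 4.

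Cldn6, a claudin of embryonic epithelia, followed Epcam and differed more in the endocrine cells. It stood at 439.7, 452, 539, 478 and 146 CPM in the knockout-labelled library, against 354, 456, 462, 536 and 147 CPM in the control library, in the same order of groups. The ratio of Chga cells over trunk-like cells was -1.59 (-2.19 to -1.05) in the knockout-labelled library and -1.60 (-1.89 to -1.32) in the control library. Against cells with at least 5 Neurog3 UMIs, Cldn6 in Chga cells had a log2 ratio of -1.67 in the knockout-labelled library and -1.83 in the control library. Epcam had one of -0.91 in the knockout-labelled library and -1.09 in the control library. These were the 2 genes of the 8 lower past 1.5-fold in this comparison in both libraries, where 11% of all genes were. Cdh2 was the 1 that was higher (13.2% of all genes). The Cdh2 ratio was 0.75 (-0.70 to 3.42) in the knockout-labelled library and 1.24 (0.33 to 2.37) in the control library, with an interval that spans 0 in the knockout-labelled library. It rests on 2 UMIs in Chga cells and 3 in cells with at least 5 Neurog3 UMIs of the knockout-labelled library, and on 19 and 10 in those of the control library. The knockout-labelled Chga group is 23 cells, and the summed level of the 10 tip markers in it was 3885 CPM, against 593 CPM in the control Chga group, in which Ptf1a and Reg1 were at 0. The part of these tip transcripts in the values of the knockout-labelled Chga group was not tested.

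Cdh1 (E-cadherin), the adherens junction cadherin of epithelia, was lowest in the cells with most Neurog3 and not in the endocrine cells. It stood at 106, 112, 88.1, 62.5 and 95.7 CPM in the knockout-labelled library, against 105, 107, 115, 50.8 and 88.9 CPM in the control library, in the same order of groups. Cells with at least 5 Neurog3 UMIs were lower than trunk-like cells, with log2 ratios of -0.79 (-1.27 to -0.34) in the knockout-labelled library and -1.0 (-1.38 to -0.64) in the control library. In Chga cells the ratio to trunk-like cells was -0.21 (-0.97 to 0.47) in the knockout-labelled library and -0.25 (-0.63 to 0.12) in the control library, with both intervals spanning 0. Cdh1 was also low in the share of cells that showed it. After thinning each cell to 3000 UMIs, which left out 1 shallower knockout-labelled cell, 12.5% (5.18% to 24.1%) of cells with at least 5 Neurog3 UMIs held a Cdh1 UMI in the knockout-labelled library and 14.7% (9.11% to 22.0%) in the control library. In trunk-like cells the shares were 28.9% (21.9% to 36.8%) in the knockout-labelled library and 28.1% (22.6% to 34.0%) in the control library, where 2 cells were left out. Unthinned, 24 of 57 knockout-labelled and 42 of 129 control cells with at least 5 Neurog3 UMIs held one. In mesenchyme, which as a rule lacks E-cadherin, the thinned share was 0.347% in the knockout-labelled library, with 48 cells left out, and 0.278% in the control library, with 30 left out.

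Cdh2 (N-cadherin, ENSMUSG00000024304, chr18:16588877-16809246), which mesenchymal and neural cells use in place of Cdh1, was sparse throughout the epithelium. It stood at 9.89, 7.34, 7.46, 4.68 and 11.3 CPM in the knockout-labelled library, against 10.8, 9.25, 2.12, 8.46 and 26.8 CPM in the control library, in the same order of groups. The Chga values rest on 2 UMIs in the knockout-labelled library and 19 UMIs in the control library, and the intervals were 1.36 to 40.7 CPM and 16.1 to 41.9 CPM. Mesenchyme-like cells held 59.3 CPM in the knockout-labelled library, against 54.2 CPM in the control library, and mesothelial cells 44.9 CPM in the knockout-labelled library, against 40.1 CPM in the control library. Neural-like cells were higher still, at 224 CPM in the knockout-labelled library, against 178 CPM in the control library. Per 100 UMIs of the collagen genes Col1a1, Col1a2 and Col3a1, epithelial cells held 33.5 (24.5 to 45.3) Cdh2 UMIs in the knockout-labelled library and 32.7 (25.8 to 41.1) in the control library, and mesenchyme-like cells 3.77 (3.53 to 4.03) in the knockout-labelled library and 2.73 (2.55 to 2.92) in the control library. The epithelial ratio was thus above the mesenchymal one in both libraries. Among the 23 knockout-labelled Chga cells, 2 held both cadherins, 9 Cdh1 alone and 12 neither. Among the 86 control Chga cells, 9 held both, 29 Cdh1 alone, 8 Cdh2 alone and 40 neither. In mesothelium most cells showed neither cadherin (101 of 170 knockout-labelled and 136 of 191 control cells), and Cdh2 alone was seen in 66 of 170 knockout-labelled cells and 55 of 191 control cells.

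The keratin partners Krt8 and Krt18 were both lower in tip-like than in trunk-like cells. They parted in cells with at least 5 Neurog3 UMIs and in Chga cells. Krt8 stood at 329, 760.2, 721, 701 and 811 CPM in the knockout-labelled library, against 372, 891, 1034, 983 and 942 CPM in the control library, in the same order of groups. It was lowest in tip-like cells and high in each other group, the endocrine cells included. Krt18 stood at 201, 554, 633, 284 and 276 CPM in the knockout-labelled library, against 306, 760.4, 863, 398 and 288 CPM in the control library. Krt18 was high in trunk-like cells and in cells with 1 to 4 Neurog3 UMIs. It was low in tip-like cells, in cells with at least 5 Neurog3 UMIs and in Chga cells. The log2 ratio of Chga cells over trunk-like cells was -0.99 (-1.43 to -0.59) in the knockout-labelled library and -1.39 (-1.59 to -1.18) in the control library for Krt18, and 0.092 (-0.16 to 0.34) in the knockout-labelled library and 0.079 (-0.043 to 0.20) in the control library for Krt8. The small Krt8 ratio is negative under TMM scaling, at -0.28 in the knockout-labelled library and -0.27 in the control library, and stays within 1.5-fold.

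The ratio of one keratin to the other within the same cells needs no scaling. Krt18 UMIs per 100 Krt8 UMIs were 72.9 (67.6 to 78.5) in knockout-labelled trunk-like cells and 85.3 (81.0 to 89.8) in control trunk-like cells. In cells with 1 to 4 Neurog3 UMIs they were 87.8 (76.9 to 100.2) in the knockout-labelled library and 83.5 (77.3 to 90.1) in the control library. They were 40.5 (33.9 to 48.3) and 40.4 (36.3 to 45.1) in cells with at least 5 Neurog3 UMIs, knockout-labelled and control, and 34.0 (24.1 to 47.4) and 30.6 (26.0 to 35.8) in Chga cells. Both libraries thus had fewer Krt18 per Krt8 transcripts in cells with at least 5 Neurog3 UMIs and in Chga cells. The intervals do not overlap those of trunk-like cells. In tip-like cells the figure was 61.1 (55.5 to 67.4) in the knockout-labelled library, against 82.4 (75.6 to 89.8) in the control library, and these intervals do not overlap. Nor do the trunk-like intervals given above overlap between the libraries. In mesothelium the balance was the other way, with 200 (157 to 257) Krt18 per 100 Krt8 UMIs in the knockout-labelled library and 323 (243 to 435) in the control library.

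**Figure D2:**
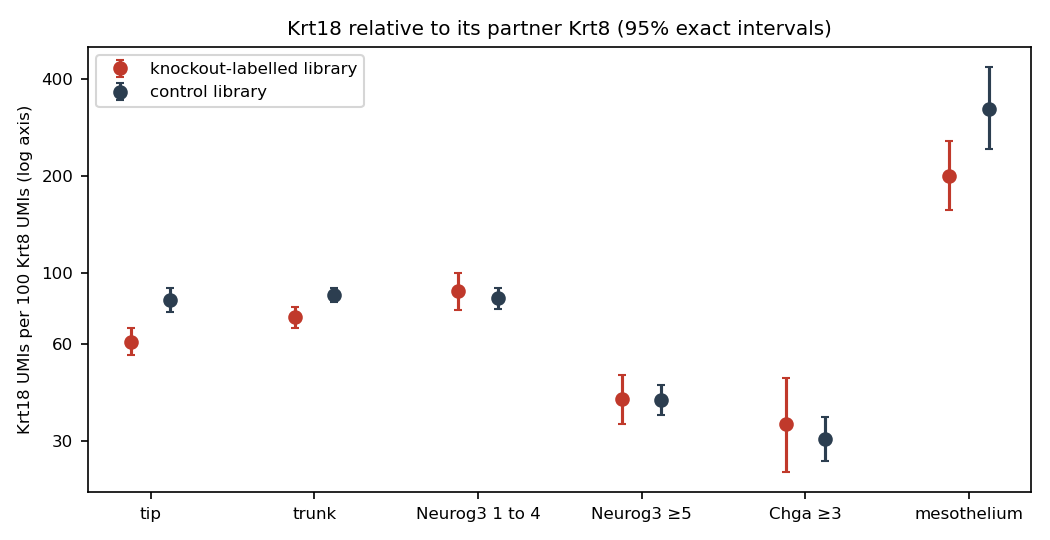
Krt18 UMIs per 100 Krt8 UMIs (log axis) in each cell group, with the knockout-labelled library left of the control library. Points are ratios of summed UMIs in 1 library and lines are exact 95% intervals for counting error alone. The ratio is between 61.1 and 87.8 in tip-like, trunk-like and Neurog3 1 to 4 cells. It is between 30.6 and 40.5 in the groups with at least 5 Neurog3 UMIs or at least 3 Chga UMIs, and 200 or more in mesothelium.

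In tip-like cells both keratins were lower than in trunk-like cells. Krt8 had log2 ratios of -1.19 (-1.30 to -1.09) in the knockout-labelled library and -1.25 (-1.35 to -1.15) in the control library, and Krt18 of -1.44 (-1.57 to -1.30) in the knockout-labelled library and -1.30 (-1.40 to -1.19) in the control library. Cldn3 had -0.96 (-1.11 to -0.81) in the knockout-labelled library and -0.94 (-1.07 to -0.82) in the control library. These 3 genes were the ones lower past 1.5-fold in both libraries, where 6.45% of all genes were. Epcam, Cldn6, Cldn7, Cdh1 and Cdh2 stayed within 1.5-fold in each library. TMM scaling raised the ratios of this contrast by 0.24 in the knockout-labelled library and by 0.22 in the control library. Under it the ratios of Cdh1 and Cldn7 in both libraries and of Cldn6 in the knockout-labelled library changed sign, and each stayed within 1.5-fold.

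Cldn3 and Cldn7, claudins of adult ducts and gut as well, parted in the endocrine branch. Cldn3 stood at 180.4, 356, 452, 208 and 146 CPM in the knockout-labelled library, against 226, 439.6, 516, 212 and 84.7 CPM in the control library, in the order tip-like, trunk-like, Neurog3 1 to 4, Neurog3 at least 5 and Chga at least 3. It was highest in cells with 1 to 4 Neurog3 UMIs and lowest in Chga cells of each library. The log2 ratio of cells with at least 5 Neurog3 UMIs over trunk-like cells was -0.76 in the knockout-labelled library and -1.04 in the control library, and that of Chga cells was -1.25 in the knockout-labelled library and -2.31 in the control library. The knockout-labelled Chga value rests on 26 UMIs, 15 of them in 1 cell, and was -2.39 when cells were removed at 2 times the doublet rate. Cldn7 stood at 240.4, 261, 255, 284 and 298 CPM in the knockout-labelled library, against 261, 279, 330.2, 277 and 259.7 CPM in the control library. None of its ratios between epithelial groups given here passed 1.5-fold in both libraries, and that of Chga cells over trunk-like cells was 0.19 in the knockout-labelled library and -0.10 in the control library. In the knockout-labelled library this last value changes sign under TMM scaling, to -0.18.

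Cells with 1 to 4 Neurog3 UMIs did not differ from trunk-like cells past 1.5-fold in both libraries for any of the 8 genes. Of all genes, 0.358% were lower and 1.05% higher. The 10 endocrine markers summed in these cells to 484 CPM in the knockout-labelled library and 502 CPM in the control library. In trunk-like cells they summed to 10.5 and 19.6 CPM, knockout-labelled and control. The group with 1 to 4 Neurog3 UMIs is thus not shown to come before that with at least 5. Cells with at least 5 Neurog3 UMIs were lower than trunk-like cells for Cdh1, Krt18 and Cldn3. These are 3 of the 8 genes, where 7.49% of all genes were lower. Within this group the 3 genes were lower at higher Neurog3 counts. With 5 to 9, 10 to 19 and at least 20 Neurog3 UMIs, Krt18 stood at 589, 309 and 128 CPM in the knockout-labelled library, against 738, 602 and 218 CPM in the control library. Cldn3 stood at 408, 292 and 82.3 CPM in the knockout-labelled library, against 482, 390.1 and 60.9 CPM in the control library. Cdh1 stood at 99.1, 68.7 and 42.5 CPM in the knockout-labelled library, against 93.0, 87.4 and 23.2 CPM in the control library. In both libraries the lowest of the 3 values was that of cells with at least 20 Neurog3 UMIs. The same held for Epcam, Krt8, Cldn6 and Cldn7, so this direction is not particular to Krt18, Cldn3 and Cdh1. The 3 genes were taken because they were low in the whole group, most of whose cells had at least 20 Neurog3 UMIs.

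Krt8 and Cldn6 differed less over the same bins of Neurog3 UMIs. Krt8 stood at 717, 704 and 692 CPM in the knockout-labelled library, against 1197, 1155 and 850.1 CPM in the control library. Cldn6 stood at 531, 489 and 448 CPM in the knockout-labelled library, against 540.3, 571 and 519 CPM in the control library. Cldn7 stood at 385, 301 and 229.7 CPM in the knockout-labelled library, against 366, 321 and 234 CPM in the control library. Epcam stood at 606, 704 and 499 CPM in the knockout-labelled library, against 744, 487 and 415 CPM in the control library. The bins held 11, 13 and 33 knockout-labelled cells, against 18, 30 and 81 control cells, so 3 of the 6 hold fewer than 20 cells. Without those bins, no trend within the knockout-labelled cells with at least 5 Neurog3 UMIs can be read, and in the control library Krt18 was 218 CPM at 20 or more Neurog3 UMIs, against 602 CPM at 10 to 19.

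**Figure D3:**
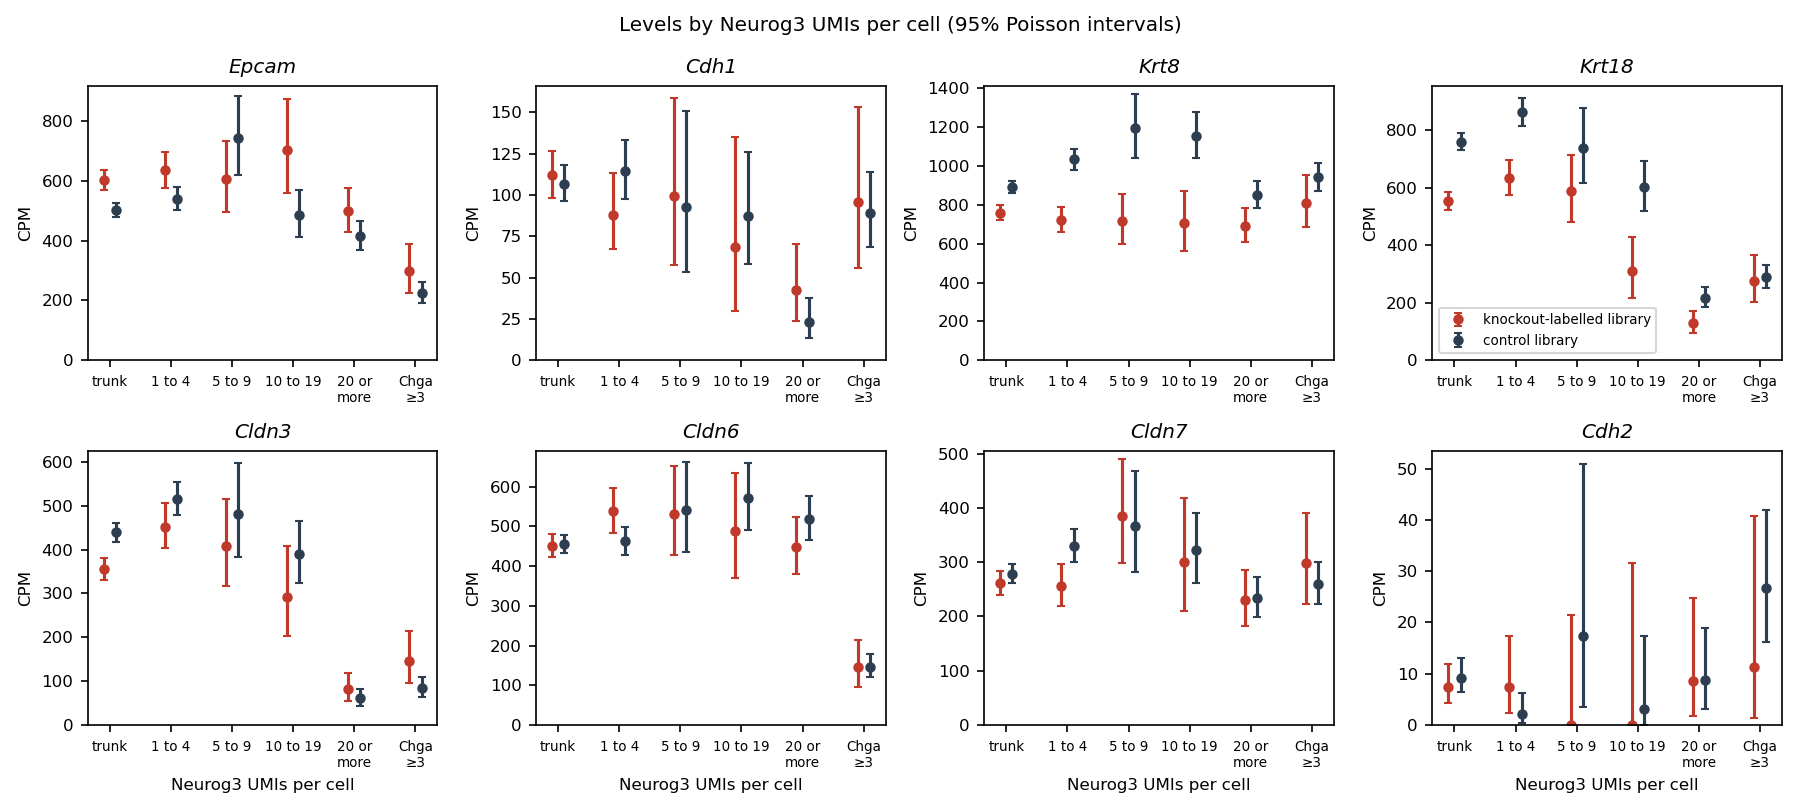
Level of the genes (CPM) in trunk-like cells without Neurog3 at the left and cells with at least 3 Chga UMIs at the right. Between them are cells with 1 to 4, 5 to 9, 10 to 19 and at least 20 Neurog3 UMIs. Chga cells were set apart whatever their Neurog3 count. The order follows the gates and is not a measured course in time. Each point is the level of 1 library with its exact Poisson 95% interval. Krt18, Cldn3 and Cdh1 are lowest or near lowest at 20 or more Neurog3 UMIs. Krt8 and Cldn7 are also lowest there, with smaller differences, while Epcam and Cldn6 are lowest in Chga cells.

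The 12 epithelial clusters, made without the 8 genes, separate these patterns into states. In endocrine progenitor-like cluster 1, led by Cck, Tubb3 and Pax4 (37 knockout-labelled and 100 control cells), Cdh1 was 15.6 CPM in the knockout-labelled library and 13.1 CPM in the control library. Cldn3 was 43.6 CPM there in the knockout-labelled library and 54.9 CPM in the control library, and Krt18 was 59.1 CPM in the knockout-labelled library and 133 CPM in the control library. These were the lowest Cdh1, Cldn3 and Krt18 levels of the 12 clusters in each library. In the same cells Krt8 was 896 CPM in the knockout-labelled library and 1061 CPM in the control library, and Epcam 398 CPM in the knockout-labelled library and 317 CPM in the control library. In endocrine progenitor-like cluster 11, led by Dll1 and Neurog3 (8 knockout-labelled and 28 control cells), Cdh1 was 77.8 CPM in the knockout-labelled library and 75.7 CPM in the control library. In endocrine-like cluster 9, led by Gcg, Iapp and Pyy (19 knockout-labelled and 76 control cells), Cdh1 was 97.6 and 101 CPM, Epcam 272 and 202 CPM, and Cldn6 90.7 and 119 CPM, knockout-labelled and control. Cdh1 was thus at its lowest in the Cck-led state and higher in the hormone-producing one in both libraries, while Epcam and Cldn6 were lower in the hormone-producing one, at their lowest of the 12 clusters.

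**Figure D4:**
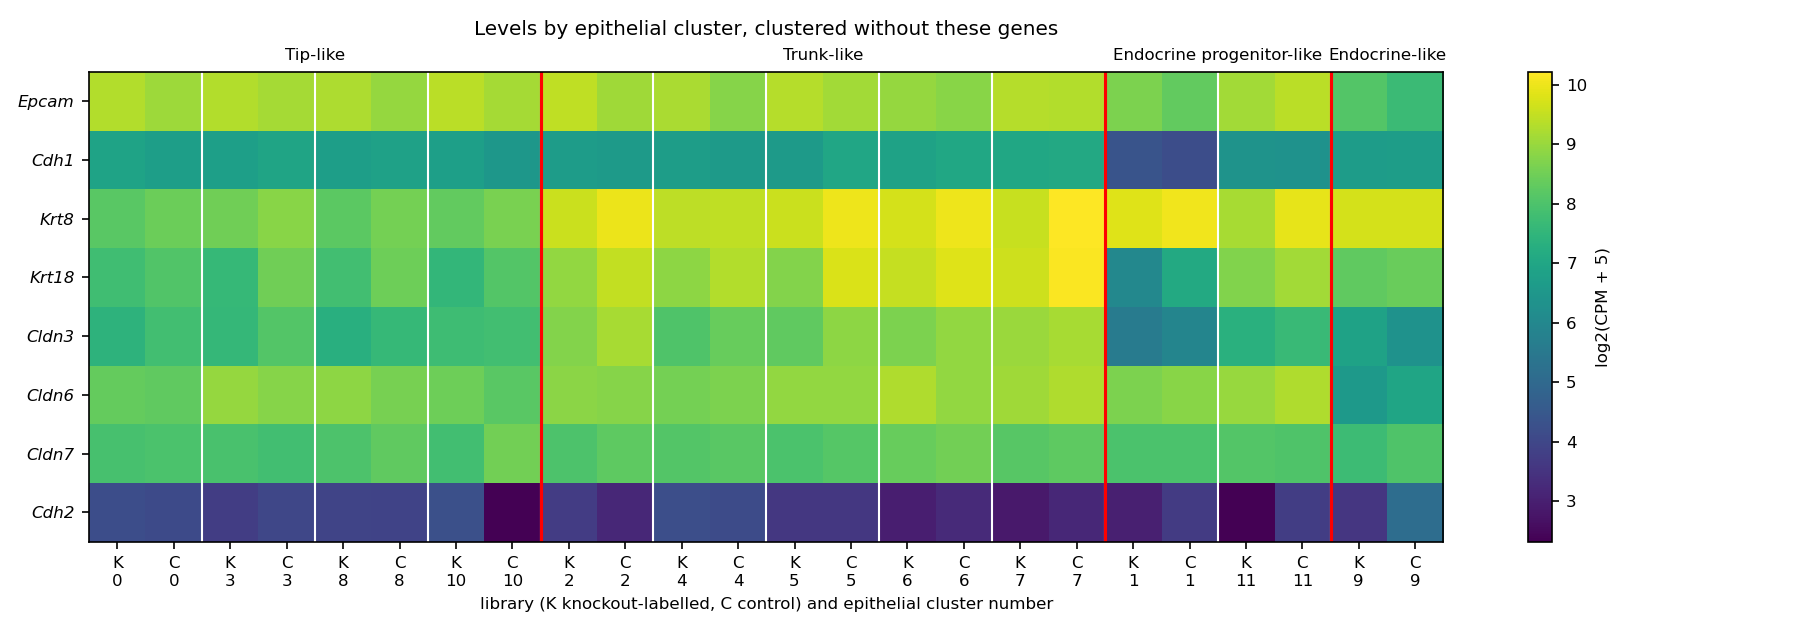
Heat map of log2(CPM + 5) of each gene in the 12 epithelial clusters, with the knockout-labelled column left of the control column for each cluster. The lowest squares for Cdh1, Cldn3 and Krt18 are in endocrine progenitor-like cluster 1, and those for Epcam and Cldn6 in endocrine-like cluster 9.

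Mesothelial cells carried the keratins Krt8 and Krt18, with low levels of Cldn3, Cldn6 and Cldn7. Krt18 stood at 113 CPM (98.3 to 130.2) in the knockout-labelled library, against 111 CPM (96.1 to 127) in the control library, and Krt8 at 56.7 CPM (46.2 to 68.9) in the knockout-labelled library, against 34.2 CPM (26.3 to 43.7) in the control library. Epcam stood at 14.0 CPM in the knockout-labelled library, against 14.4 CPM in the control library. Cdh1 had 3 UMIs in the knockout-labelled library and 0 in the control library, which allows up to 1.60 CPM (3 counts). Cldn3, Cldn6 and Cldn7 stood at 1.68, 2.25 and 0.561 CPM in the knockout-labelled library, against 3.74, 9.09 and 2.67 CPM in the control library. Cldn6 had a log2 ratio over mesenchyme-like cells of -0.10 (-0.48 to 0.52) in the knockout-labelled library and 0.71 (0.21 to 1.27) in the control library. Against mesenchyme-like cells, 3 of the 8 genes were higher past 1.5-fold in both libraries, where 8.54% of all genes were. These were Krt18, with log2 ratios of 3.62 in the knockout-labelled library and 3.39 in the control library, Krt8, with 2.59 in the knockout-labelled library and 1.59 in the control library, and Epcam, with 1.28 in the knockout-labelled library and 1.28 in the control library. Against trunk-like cells 7 of the 8 were lower past 1.5-fold in both libraries (11.6% of all genes) and Cdh2 was higher (12.3%), at 2.02 in the knockout-labelled library and 1.66 in the control library.

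Spp1 and Cpa1, abundant trunk and tip transcripts, were taken as a scale for free epithelial RNA in the droplets, whose part was not tested. Per 100 Spp1 and Cpa1 UMIs, mesothelial cells held 80.6 Epcam UMIs in the knockout-labelled library and 42.9 in the control library, beside 8.06 and 5.88 in mesenchyme-like cells. For Krt18 the figures were 652 and 329 in mesothelium, beside 13.2 and 11.9 in mesenchyme, and for Krt8 326 and 102 beside 14.8 and 15.7, each pair knockout-labelled and control. In the epithelium itself the figures were 25.7 and 14.3 for Epcam, 15.3 and 16.2 for Krt18, and 23.2 and 22.2 for Krt8, knockout-labelled and control. The mesothelial ratios of these 3 genes were above the epithelial and mesenchymal ones in both libraries, and the mesenchymal ones were below the epithelial ones. For the claudins the counts were small. Cldn6 had 12.9 in knockout-labelled and 27.0 in control mesothelium, beside 7.88 in knockout-labelled and 7.08 in control mesenchyme, and its intervals did not overlap in the control library alone. Cldn3 had 9.68 and 11.1 in mesothelium beside 5.49 and 6.12 in mesenchyme, and Cldn7 3.23 and 7.94 beside 8.79 and 6.96, each pair knockout-labelled and control, with intervals that overlap. At 3000 UMIs per cell, 28.8% (22.1% to 36.3%) of mesothelial cells held a Krt18 UMI in the knockout-labelled library and 24.2% (18.3% to 30.9%) in the control library, beside 1.14% of knockout-labelled and 1.63% of control mesenchyme-like cells. For Epcam the mesothelial shares were 5.29% (2.45% to 9.81%) in the knockout-labelled library and 4.74% (2.19% to 8.80%) in the control library, beside 0.991% of knockout-labelled and 0.912% of control mesenchyme-like cells. Before thinning, the median mesothelial cell had 10068 UMIs in the knockout-labelled library and 8872 in the control library, and the median mesenchyme-like cell 7196 in the knockout-labelled library and 5985 in the control library.

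Between the libraries, the 8 genes differed little in most cell groups. Of 43 ratios with at least 20 UMIs, over 8 genes and 6 cell groups, 5 passed 1.5-fold, 2 higher and 3 lower in the knockout-labelled library. In tip-like cells the gene past 1.5-fold was Krt18, 1 of 8 where 6.07% of all genes were. In Chga cells they were Cldn3 and Cdh2, 2 of 8 where 25.3% were, and in mesothelium Krt8 and Cldn6, 2 of 5 where 8.48% were. None passed in trunk-like cells (4.63% of all genes), in cells with 1 to 4 Neurog3 UMIs (15.0%) or in cells with at least 5 (13.8%). Over the whole epithelium the median log2 ratio of the 8 genes was -0.14, beside -0.024 for all genes.

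Krt18 was lower in the knockout-labelled library in 4 of the 5 epithelial groups, with log2 ratios of -0.59 (-0.73 to -0.45) in tip-like cells, -0.45 (-0.55 to -0.36) in trunk-like cells, -0.44 (-0.61 to -0.29) in cells with 1 to 4 and -0.48 (-0.73 to -0.23) in cells with at least 5 Neurog3 UMIs. In Chga cells the ratio was -0.061 (-0.53 to 0.39), and it changed sign in 3 of 24 alternatives, to 0.13 with mean CPM over cells. Over the whole epithelium it stood at 362 CPM (348 to 376) in the knockout-labelled library, against 555 CPM (541 to 570.1) in the control library, a log2 ratio of -0.61 (-0.68 to -0.54). It was 1 of 8 past 1.5-fold there, where 2.78% of all genes were. This is at the edge of the threshold. The epithelial value also holds the different make-up of the groups, and with the 5 groups weighted alike in both libraries it was -0.47. The tip-like value of -0.59 became -0.37 without the 2 tip-like clusters in which knockout-labelled cells were the majority (134 knockout-labelled and 61 control cells). Tip-like cluster 3, led by Try5 and Vtn, held 104 knockout-labelled and 51 control cells, and cluster 10, led by Jag1 and Chst2 with no tip marker among its 10 leading genes, 30 knockout-labelled and 10 control cells; these are the 2 left out. Of the other tip-like clusters, cluster 0, led by Prss2 and Ube2c, held 28 knockout-labelled and 67 control cells and cluster 8, led by Serpini2 and Ctrb1, 27 knockout-labelled and 43 control cells. The summed level of the 10 tip markers in tip-like cells was 8574 CPM in the knockout-labelled library, against 14461 CPM in the control library, and its part in the Krt18 difference was not tested.

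**Figure D5:**
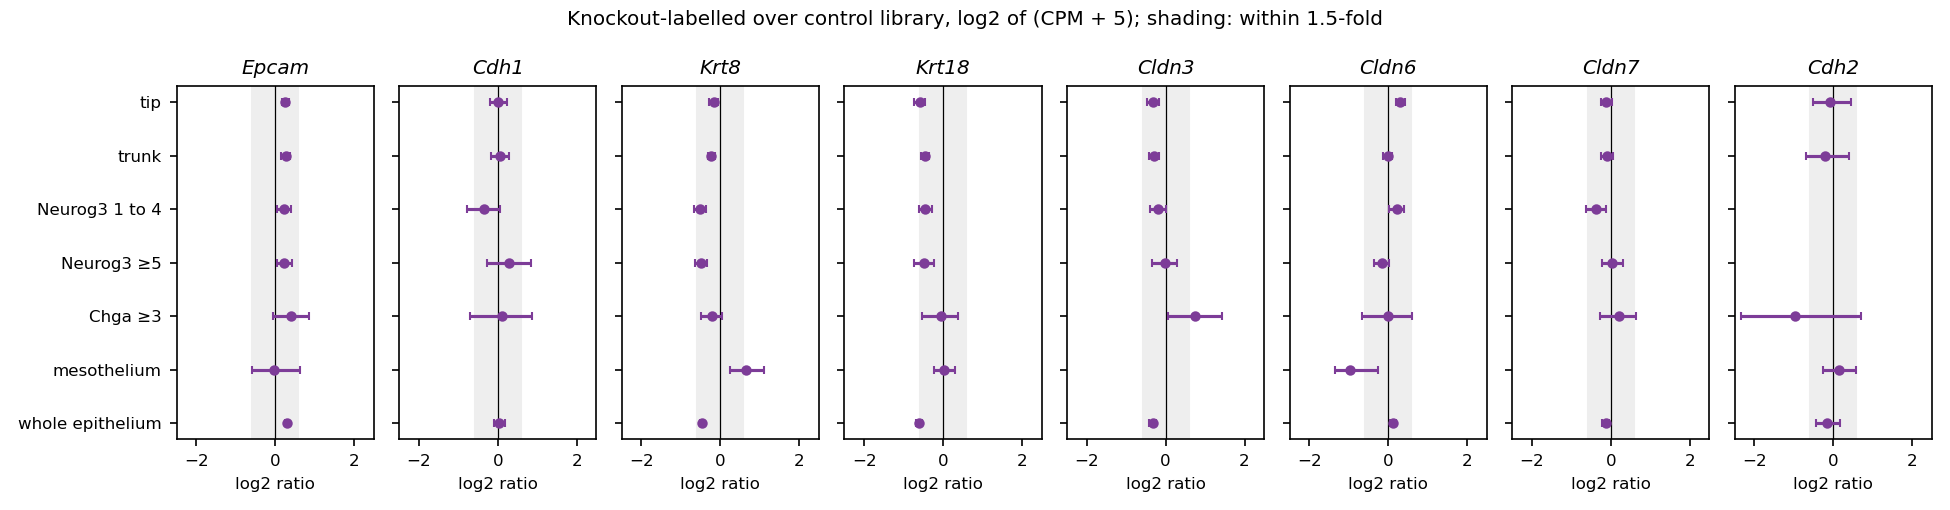
Log2 ratio of (CPM + 5), knockout-labelled over control library, of each gene in each cell group, with 95% intervals for counting error alone. Grey shading marks ratios within 1.5-fold in either direction. Krt18 and Krt8 points lie below 0 and Epcam points above 0 in the 5 epithelial groups, nearly all inside the shading, and in Chga cells the intervals of all 3 genes span 0.

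Krt8 was lower too, with smaller ratios than Krt18 in tip-like and trunk-like cells and not in the Neurog3 and Chga groups. It had -0.17 (-0.29 to -0.054) in tip-like cells, -0.23 (-0.31 to -0.14) in trunk-like cells, -0.52 (-0.67 to -0.37) in cells with 1 to 4 and -0.49 (-0.64 to -0.33) in cells with at least 5 Neurog3 UMIs, and -0.21 (-0.48 to 0.046) in Chga cells. In cells with 1 to 4 Neurog3 UMIs it passes 1.5-fold under median-of-ratios scaling, at -0.60. Epcam lay the other way, at 0.26 (0.17 to 0.35), 0.26 (0.16 to 0.36), 0.23 (0.057 to 0.40), 0.23 (0.034 to 0.42) and 0.40 (-0.065 to 0.85) in the 5 epithelial groups from tip-like to Chga cells. Over the 12 epithelial clusters, Krt18 was lower in the knockout-labelled library in 12, Krt8 and Cldn3 in 11, and Epcam was higher in 11. Among the 2003 genes with at least 20 UMIs in every cluster, 1.5% were lower in all 12, 4.74% in at least 11, and 6.34% higher in at least 11. All clusters of a library come from 1 embryo, so they are not replicates of the difference. By ratio, the trunk-like cluster in which Krt18 differed most was cluster 5, at 428 CPM in the knockout-labelled library, against 862 CPM in the control library. The tip-like one was cluster 3, at 189.5 CPM against 358 CPM. Krt18 differed least in trunk-like cluster 6, at 727 CPM against 902 CPM, and in tip-like cluster 0, at 218 CPM against 262 CPM.

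Cldn3 had log2 ratios of -0.32, -0.30, -0.19 and -0.026 in the first 4 epithelial groups and 0.76 (0.062 to 1.42) in Chga cells. The Chga value rests on 26 UMIs in the knockout-labelled library, of which 15 came from 1 cell. It was -0.35 when cells were removed at 2 times the doublet rate. Cdh2 in Chga cells was -0.97 (-2.34 to 0.70), on 2 UMIs in the knockout-labelled library and 19 in the control library. Cldn6, Cldn7 and Cdh1 showed no common direction, with ranges over the 5 epithelial groups of -0.17 to 0.31, -0.37 to 0.20 and -0.36 to 0.27. The small tip-like ratio of Cdh1 and that of Cldn7 in cells with at least 5 Neurog3 UMIs change sign under TMM and median-of-ratios scaling.

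In mesothelium Krt8 was higher in the knockout-labelled library, at a log2 ratio of 0.65 (0.23 to 1.10), with 101 UMIs in 54 of 170 cells, against 64 UMIs in 48 of 191 cells of the control library. With a gate of at least 5 UMIs of the 3 mesothelial genes the ratio was 0.18. Krt18 differed by 0.034 (-0.24 to 0.31) in the same cells. Cldn6 was lower, at -0.96 (-1.34 to -0.25), on 4 UMIs in the knockout-labelled library and 17 in the control library. The 16 epithelial markers summed to 609 CPM in knockout-labelled and 733 CPM in control mesothelium. Krt7 and Krt19, which were higher in mesothelium than in trunk-like cells, made up 193 and 218 CPM of the sum in the knockout-labelled library and 269 and 277 CPM in the control library, so the sum does not measure epithelial RNA there. The part of epithelial RNA in the Krt8 difference was not tested. The 13 mesenchymal markers summed to 1636 CPM in knockout-labelled and 1616 CPM in control mesothelium.

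At 3000 UMIs per cell, with 2 knockout-labelled and 6 control cells left out, a Krt18 UMI was seen in 54.9% (50.3% to 59.5%) of epithelial cells of the knockout-labelled library and 68.3% (64.8% to 71.7%) of those of the control library. Unthinned, the shares were 86.2% in the knockout-labelled library and 90.1% in the control library. For Krt8 the shares were 76.8% and 84.4%, for Cldn6 72.8% and 64.8%, and for Epcam 81.5% and 78.8%, knockout-labelled and control. These epithelial shares pool all groups, and before thinning 184 of 472 knockout-labelled and 161 of 748 control cells were tip-like. They thus also hold the different make-up of the groups. In mesenchyme-like cells the Krt18, Krt8, Cldn6 and Epcam shares were 1.14%, 1.49%, 0.842% and 0.991% in the knockout-labelled library, against 1.63%, 2.38%, 1.23% and 0.912% in the control library. At least 5 of the 7 genes other than Cdh2 were seen together in 59.2% of trunk-like cells of the knockout-labelled library and 64.0% of those of the control library. In tip-like cells, knockout-labelled and control, the shares were 26.1% and 35.4%, and in Chga cells 13% and 19%. The median number seen was 5 in trunk-like, 4 in tip-like and 3 in Chga cells of both libraries, and 0 in mesothelial and mesenchyme-like cells.

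Other junction, keratin and epithelial genes were compared in 9 lists, whose median log2 ratios over the epithelium ran from -0.17 to 0.12. Of 14 further claudins and tight junction membrane genes with at least 20 UMIs, 3 were lower past 1.5-fold in the knockout-labelled epithelium and none higher, where 1.97% and 0.81% of all genes were. These were Cldn10, a claudin that forms ion channels, at 151 CPM in the knockout-labelled library, against 237 CPM in the control library, and Cldn11 and Cldn12. Cldn10 was lower in tip-like cells as well, at 193 CPM in the knockout-labelled library, against 359 CPM in the control library. In Chga cells Cldn11 had 3 UMIs in 23 knockout-labelled cells, against 68 UMIs in 86 control cells, most of its UMIs in the control epithelium, so its epithelial ratio also holds the different number of these cells. Of 9 further keratins and keratin partners, 2 were lower, Krt7 at 109.8 CPM in the knockout-labelled library, against 179 CPM in the control library, and Krt19 at 39.2 CPM in the knockout-labelled library, against 63.6 CPM in the control library. Both are keratins of ducts, and both served among the markers that named the epithelium. In trunk-like cells Krt7 stood at 98.6 CPM in the knockout-labelled library, against 126 CPM in the control library, in cells with at least 5 Neurog3 UMIs at 387 CPM in the knockout-labelled library, against 441 CPM in the control library, and in Chga cells at 535 CPM in the knockout-labelled library, against 551 CPM in the control library. On the log2(CPM + 5) scale Krt7 was within 1.5-fold in each of the 5 groups, and its epithelial ratio also holds their different make-up. Krt19 was lower past 1.5-fold within trunk-like cells, at 46.8 CPM in the knockout-labelled library, against 74.0 CPM in the control library. Its level was lower in every other epithelial group too, with 20.4 and 22.2 CPM in tip-like cells, knockout-labelled and control. Over the whole epithelium, none of the 20 plaque and polarity, 14 adherens junction, 6 further cadherin, 9 desmosome, 14 surface, 15 epithelial factor or 10 mesenchymal genes passed 1.5-fold in either direction. Ctnnb1, which links cadherins to actin and carries Wnt signals, stood at 200 CPM in the knockout-labelled library, against 191 CPM in the control library. Spint2, a protease inhibitor of epithelial surfaces, stood at 386 CPM in the knockout-labelled library, against 277 CPM in the control library, and Dsg2, the desmosomal cadherin of simple epithelia, at 61.8 CPM in the knockout-labelled library, against 51.4 CPM in the control library.

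Along the endocrine branch other keratins and claudins differed in both directions. Krt7 was higher in Chga cells than in trunk-like cells, at 535 against 98.6 CPM in the knockout-labelled library and 551 against 126 CPM in the control library. Krt19 was higher past 1.5-fold in cells with at least 5 Neurog3 UMIs, at 101 CPM in the knockout-labelled library, against 153 CPM in the control library, and lower in Chga cells, at 11.3 CPM in the knockout-labelled library, against 21.2 CPM in the control library. Of the 14 tight junction membrane genes, 4 were higher past 1.5-fold in Chga cells than in trunk-like cells in both libraries (Cldn4, Cldn11, Cldn12 and Cldn23), where 18.5% of all genes were, and 5 were lower (Cldn8, Cldn9, Cldn10, Ocln and Cxadr). Ocln encodes occludin. The median log2 ratio of these 14 was -0.53 in the knockout-labelled library and 0.0019 in the control library, where the median of all genes was 0.026 in the knockout-labelled library and 0.13 in the control library. Of 20 plaque and polarity genes, 1 was higher (Pard6a) and 6 lower, among them Cgn, which encodes cingulin. Of 9 desmosome genes 1 was higher (Evpl) and 2 lower, Dsp and Dsg2. Of all genes, 15.8% were lower and 18.5% higher in this contrast. Dsp, which ties desmosomes to keratin, stood at 5.63 CPM in Chga cells and 69.7 CPM in trunk-like cells of the knockout-labelled library, and at 15.5 and 46.3 CPM in those of the control library. Many of these values rest on few UMIs in the knockout-labelled Chga cells. Cldn8 and Cldn9 had 0 there, Dsp 1, and Krt19, Evpl, Cldn10 and Ocln 2 each. Cldn11, Cldn12 and Cgn had 3 each, Cxadr and Dsg2 5 each, and Pard6a 6.

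In cells with at least 5 Neurog3 UMIs, 2 of 8 measured mesenchymal genes were higher than in trunk-like cells in both libraries, where 9.63% of all genes were, and 1 was lower. Snai2, a repressor of Cdh1, stood at 12.5 CPM in the knockout-labelled library, against 15.2 CPM in the control library, and in trunk-like cells at 1.83 CPM in the knockout-labelled library, against 0.561 CPM in the control library. The levels in cells with at least 5 Neurog3 UMIs rest on 8 UMIs in the knockout-labelled library and 18 in the control library. Zeb1, another such repressor, had 6 UMIs in each library. Vim, the mesenchymal filament protein vimentin, was lower, at 278 CPM in cells with at least 5 Neurog3 UMIs and 453 CPM in trunk-like cells of the knockout-labelled library, and 259 and 451 CPM in those of the control library. Of 13 epithelial transcription and splicing factors 5 were higher and 1 lower. The higher ones included Foxa2, a pioneer factor of gut epithelia, at 101 CPM in the knockout-labelled library, against 120.1 CPM in the control library, and the lower one was Grhl2, an activator of junction genes. In mesothelium 5 of 11 measured keratin and keratin partner genes were higher than in trunk-like cells in both libraries (Krt7, Krt19, Krt14, Krt15 and Krt17), with Krt19 at 218 CPM in the knockout-labelled library, against 277 CPM in the control library. Cldn1 and Cldn15 were the 2 of 15 tight junction membrane genes that were higher there, near the share of all genes, and 8 were lower. Of all genes, 12.3% were higher and 11.6% lower in this contrast. Cdh3, a further classical cadherin, stood at 47.2 CPM in the knockout-labelled library, against 58.3 CPM in the control library.

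Over the 12 values of 6 cell groups in 2 libraries, the likeness of a pair of patterns was described by Pearson's r of log2(CPM + 5). These values share their libraries and are dominated by the contrast between epithelium and mesothelium, so r is given without a test. Epcam and Cldn6 were the closest pair of the 8 (r = 0.99) and Krt8 with Krt18 had r = 0.82, while Cdh2 was negative with each of the others, between -0.92 and -0.78. Among the 4387 other genes compared, those most like Epcam were Cda (0.99), Apoc1 (0.99) and Acer2 (0.98). Those most like Cdh1 were Rbm47 (0.99), Rab25 (0.98) and Pla2g16 (0.98), and those most like Cldn7 were Rab25 (0.99), Ambp (0.99) and Ap1m2 (0.98). For Krt8 they were Kif12 (0.98), Prox1 (0.96) and Nkx6-1 (0.96), and for Krt18 Errfi1 (0.94), St3gal4 (0.93) and Arpc1b (0.93). For Cldn3 they were Smoc1 (0.98), Kcnk1 (0.98) and Mapk13 (0.97), for Cldn6 Acer2 (0.99), Apoc1 (0.98) and Dera (0.98), and for Cdh2 Kctd8 (0.92), Hdgfrp3 (0.91) and Uqcrh (0.91). Rab25 appears for both Cdh1 and Cldn7, and Acer2 and Apoc1 for both Epcam and Cldn6.

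The authors' deposited table of cluster genes over their own 7 clusters holds 22 rows of 6 of the 8 genes, all but Cldn7 and Cdh2, with average log folds read here as natural logs. In the cluster led by Neurog3 and Cck, the authors' deposited table gives Cldn3 at -1.01, Krt18 at -0.91, Cdh1 at -0.50, Epcam at -0.29 and Krt8 at 0.36. In the cluster led by Gcg and Pyy the authors' deposited table gives Cldn6 at -0.95, Epcam at -0.73, Cldn3 at -0.67 and Krt18 at -0.32, with no row for Cdh1. In both clusters led by acinar genes it gives Krt8 at -0.66 and -0.70, Krt18 at -0.58 and -0.55 and Cldn3 at -0.28 and -0.35 (the authors' deposited table). In the Spp1-led cluster the authors' deposited table gives Krt18 at 0.72, Cldn3 at 0.57, Krt8 at 0.29 and Cldn6 at 0.29. Which cells entered the authors' deposited table is not stated in it, and it is not a repeat of the experiment.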

How the data were processed

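Live cells (7-AAD negative) of 1 knockout-titled and 1 control pancreas were sorted and loaded on the 10x Chromium 3′ v2 kit, per the labels' protocols. The authors deposited raw UMI counts for every gene in each cell barcode. The submitters' processing notes name Cell Ranger, GRCm38 (mm10) and Seurat 2 and 3, without a Cell Ranger version, and the annotation and the treatment of overlapping genes are not given there. Another deposited table, per the file headers, gives average log folds per cluster, read here as natural log, with p-values over cells that were not used. Groups came from the sample titles.

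Cells were kept with at least 500 genes, 1000 UMIs and at most 10% mitochondrial UMIs (32 knockout-labelled and 29 control barcodes removed). Per library, the highest-scoring 0.8% per 1000 barcodes against simulated doublets (2 per cell) were removed, 74 and 122 cells. Counts scaled to 10000 per cell were log-transformed. Then 2000 variable genes without the 8 genes studied gave 30 principal components, a graph of 15 neighbours and 21 Leiden clusters at resolution 1.0 (seed 0), and the epithelium was clustered again into 12. Clusters were named "-like" from a marker list, with at least 3 markers detected. Epithelial cells were assigned by Chga, then Neurog3, then cluster; 3 knockout-labelled and 9 control cells fit no group. The mesothelium gate was applied to cells outside the epithelium.

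Ratios are log2 of (CPM + 5) with exact conditional intervals of 2 Poisson counts, shares were taken after thinning to 3000 UMIs where stated, and genes with under 20 UMIs were left out of counts. A gene is past 1.5-fold where the size of its log2 ratio is at least log2 of 1.5. No test between conditions was run. The genes named are the 8, Dpy30, the gate genes, up to 4 genes per list (2 by level and 2 by ratio) and the 3 genes most like each of the 8; other list genes named were among those past 1.5-fold and were chosen after their values were seen. The 8 genes, the 9 lists and the alternatives were chosen with earlier results of these data known. The calculation of the ratio interval was checked on Poisson counts simulated from the gene rates of the epithelium. Such counts hold no variation between cells or embryos, so the check does not cover it. Python 3.11.15, numpy 2.4.6, scipy 1.17.1, pandas 2.3.3, scanpy 1.11.5, scikit-learn 1.9.0, igraph 0.11.9 and matplotlib 3.10.9 were used.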

Additional observations from a re-analysis of the deposited data

Results flagged for a closer look

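Krt8 and Cldn6 each had mesothelial and epithelial differences of opposite direction between the libraries. The log2 ratio of Krt8, knockout-labelled over control, was 0.65 in mesothelium and -0.47 in epithelium, a gap of 1.13 that was not tested. The epithelial Krt8 value also holds the different make-up of the groups, and with the 5 groups weighted alike in both libraries it was -0.30. The mesothelial Krt8 value was 0.18 with a gate of at least 5 UMIs of the 3 mesothelial genes. For Cldn6 it was -0.96 in mesothelium and 0.12 in epithelium, a gap of -1.08 that was not tested. The mesothelial Cldn6 value rests on 4 UMIs in the knockout-labelled library and 17 in the control library, and the Krt8 value on 101 and 64.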

How the results depend on the processing

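No paired analysis was possible because each group is 1 library and the labels carry no replicate numbers. Of 25 alternatives, 3 were chosen after seeing the data (leaving out the tip-like clusters of mostly knockout-labelled cells, equal group shares and leaving out shared barcodes). The counts of genes lower than in trunk-like cells in both libraries (4 in Chga cells, 3 in cells with at least 5 Neurog3 UMIs, 3 in tip-like cells, 7 in mesothelium) were the same or within 1.5 times in every alternative run. The number past 1.5-fold between the libraries, 5, was 3 with a mesothelium gate of 5 UMIs, with mean CPM over cells and with thinned cells, 1 with a pseudocount of 20 and 2 with a minimum of 100 UMIs. It was not computed with equal group shares. The lower Krt18 level in tip-like cells (-0.59) lost its call in 6 of 24 alternatives, 5 of them between -0.58 and -0.56. Over the whole epithelium (-0.61) it lost it in 6 of 25, with -0.58 under TMM scaling, -0.54 with thinned cells and -0.39 without those tip-like clusters. The mesothelial Krt8 ratio was 0.55 with mean CPM and 0.50 with a pseudocount of 20, at which the mesothelial Cldn6 ratio was -0.39 and the Cdh2 ratio in Chga cells -0.58. The Cldn3 ratio in Chga cells was 0.37 with gates on thinned cells and reversed to -0.35 at 2 times the doublet rate; the cause was not tested. Subtracting a mesenchymal background sets Cdh2 to 0 by construction, since mesenchyme expresses it. Depth limits Cdh2 throughout and each gene in the 23 knockout-labelled Chga cells.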
